A study of Homo sapiens with 10 samples.

Results

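The miRNAs of the chromosome 19 primate placental cluster were read from quantitative PCR panels that measured the miRNAs recovered with a probe against one messenger RNA. The members were chosen by name. They were the assays named miR-498, miR-512, miR-515 to miR-527, miR-1283 or miR-1323, with any letter or arm, whose name does not end in an asterisk, the older mark of a passenger strand. The rule found 42 of 745 miRNA assays, 21 on each of the 2 panels. No assay named miR-1283 or miR-1323 was among the rows used here. The rule uses names and no measured value, but it was set with earlier results of these data known. It mentions miR-520h as detected beside undetected neighbours. The detection of miR-520h and of its neighbours is therefore given as a description.

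The samples came from HepG2, a human liver tumour line, and PC-3, a human prostate cancer line. HepG2 cells received a control probe, a probe against p21 mRNA or a probe against STAT3 mRNA, and PC-3 cells received a control probe or the p21 probe. In all 5 purifications the probe was transfected for 24 hours, and the hybridised RNA was taken up on streptavidin beads and extracted with TRIzol before SYBR Green PCR. Both lines are tumour lines kept in culture, neither is placental, and no untransfected or total RNA sample was analysed here. p21 is an inhibitor of cyclin-dependent kinases, and STAT3 is a transcription factor downstream of cytokine receptors.

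Each purification was made 1 time and each assay was read in 1 well per purification, so 10 columns of Cq values hold 5 measurements of each member. The Cq is the PCR cycle at which the product crosses a threshold. The more template, the lower the Cq, and each cycle was counted as 1 log2 unit. An assay counted as detected at a Cq of at most 35. Conditions rest on 1 purification each, so none could be tested against another and no p-value is given. The panels hold different assays and are not replicates of each other. In recovered RNA of this kind, fewer cells carrying an miRNA and less miRNA per cell cannot be told apart.

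The cluster, often written C19MC, is a dense run of related miRNA genes found in primates. In placenta it is imprinted and transcribed from the paternal copy, and trophoblast cells are its best known site of expression. It is also active in human embryonic stem cells and in some tumours. An miRNA finds its targets mainly through its seed, bases 2 to 8 from the 5′ end. Many members carry a seed built on AAGUGC, which they share with the miR-302, miR-372 and miR-17 families, and several miRNAs with such seeds have been reported to repress p21.

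The sequences below are mature miRNAs from RefSeq (GRCh38.p14), written 5′ to 3′ with the seed in capitals. RefSeq held a mature sequence for 39 of the 42 members. Of these, 22 had the same name there and 17 carry an older name without an arm, which was matched to the arm that the name then denoted. The members miR-518f, miR-522 and miR-527 are given by name only. The pair below shares the seed CAAAGUG and is shown because miR-520h was the detected member and miR-520g is its longer copy.
miR-520h: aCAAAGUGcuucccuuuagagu
miR-520g: aCAAAGUGcuucccuuuagagugu

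The 22 bases of miR-520h are the first 22 of the 24 bases of miR-520g, which has 2 more bases at its 3′ end. Their hairpin precursors are nearly the same as well, with the first 76 bases shared. The hairpins are printed with the mature miRNA in capitals, 90 bases for MIR520G and 88 for MIR520H.
MIR520G: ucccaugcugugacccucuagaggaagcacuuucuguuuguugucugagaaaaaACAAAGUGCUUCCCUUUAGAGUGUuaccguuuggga
MIR520H: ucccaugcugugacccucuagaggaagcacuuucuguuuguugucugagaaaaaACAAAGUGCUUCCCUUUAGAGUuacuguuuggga

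The next set shows the largest seed group of the cluster, AAGUGCU with 5 members, above miR-372, a stem cell miRNA outside the cluster that has the same seed.
miR-520a-3p: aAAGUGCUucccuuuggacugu
miR-520b: aAAGUGCUuccuuuuagaggg
miR-520c-3p: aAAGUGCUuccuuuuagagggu
miR-520d-3p: aAAGUGCUucucuuuggugggu
miR-520e: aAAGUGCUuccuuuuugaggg
miR-372: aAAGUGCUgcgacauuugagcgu

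The member miR-519d is shown with miR-106a, because miR-519d is the member that has the seed of the miR-17 family, AAAGUGC.
miR-519d: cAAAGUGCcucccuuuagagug
miR-106a: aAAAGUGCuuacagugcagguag

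The members miR-517a, miR-517b and miR-517c share the seed UCGUGCA, and miR-517a and miR-517b have 1 and the same mature sequence.
miR-517a: aUCGUGCAucccuuuagagugu
miR-517b: aUCGUGCAucccuuuagagugu
miR-517c: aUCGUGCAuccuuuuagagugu

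Over all 39 sequences there were 22 different seeds, and 27 members shared theirs with another member. The sources used here do not give the primer sequences of the assays, so how well an assay separates members this similar is not known.

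In every purification 1 of the 42 members was detected, and it was miR-520h each time. Of all 745 assays, 16.8% were detected with the control probe in HepG2, 28.3% in the p21 purification and 34.4% in the STAT3 purification. In PC-3 the shares were 2.15% in the control and 7.11% in the p21 purification. Over any of the 5 purifications, 44.2% of all assays were detected, against 1 of 42 members. The count of detected members stayed at 1 while the count of all detected assays ran from 16 in the PC-3 control to 256 with the STAT3 probe. As a share, 1 of 42 is 2.38%, near that of all assays in the PC-3 control. On panel 2, where miR-520h was read, 4.76% of members were detected. There the shares of all assays were 4.6%, 22.4% and 31.6% in HepG2 (control, p21, STAT3) and 2.16% and 4.05% in PC-3 (control, p21).

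The miR-520h assay, on panel 2, gave a Cq of 33.12 with the control probe in HepG2, 32.83 with the p21 probe and 33.31 in the STAT3 purification. In PC-3 it gave 33.71 in the control and 33.98 with the p21 probe. All 5 values lay within 1.15 cycles of each other, with a mean of 33.39 and an SD of 0.46 over purifications that are not replicates. The 3 HepG2 values were lower than both PC-3 values. The same held for the UniSp6 spike-in of panel 2, with 19.9 to 20.72 in HepG2 against 21.28 and 21.88 in PC-3. For reference assays read on panel 1 and panel 2 the SD of a single well was 0.634 cycles (22 pairs of wells). This SD also holds any shift between the panels, while all miR-520h wells were on panel 2. In the STAT3 purification, for example, UniSp6 read 21.9 on panel 1 and 19.9 on panel 2. The SD of miR-520h was below 0.634, but its size against wells repeated on 1 panel was not measured. Wells near Cq 35 hold few template molecules and may be less precise than the reference wells.

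**Figure D1:**
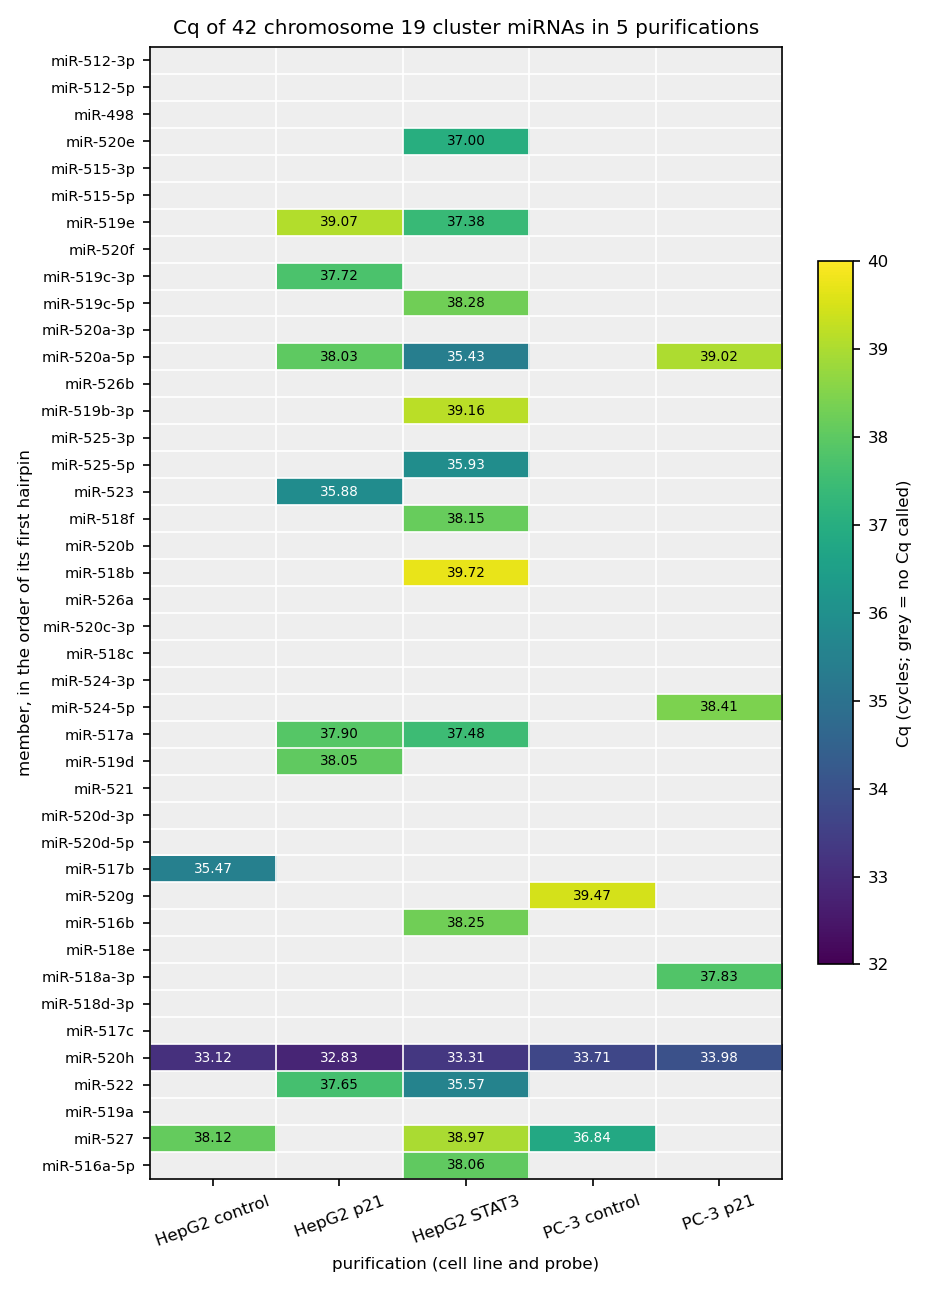
Cq in cycles of the 42 cluster members (rows, in the order of their first hairpin along chromosome 19) in the 5 purifications (columns), with grey for wells without a Cq and colour from 32 to 40 cycles. The row of miR-520h is filled in all 5 columns between 32.83 and 33.98, and the other 27 calls lie between 35.43 and 39.72.

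miR-520h was not among the strongest assays. By Cq on both panels it ranked 58 of 125 detected assays in the HepG2 control, 101 of 211 with the p21 probe and 89 of 256 in the STAT3 purification. In PC-3 it ranked 7 of 16 in the control and 28 of 53 with the p21 probe. Its Cq differed from the median of the detected assays by -0.47 to 0.06 cycles over the 5 purifications. Panel 2 had fewer strong assays, and there its rank was 5 of 17, 25 of 83 and 22 of 117 in HepG2 and 4 of 8 and 6 of 15 in PC-3.

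Besides miR-520h, 8 assays were detected in all 5 purifications. They were miR-346, let-7d*, miR-1266, miR-663, miR-324-3p, miR-1974, miR-720 and miR-1979, of which the last 3 have since been withdrawn as miRNAs and are regarded as fragments of other small RNAs. miR-520h had the smallest range of these 9 assays. The next smallest were 1.55 cycles for miR-346, 1.6 for let-7d* and 1.96 for miR-1266, and the largest was 8.05 for miR-1979. The cellular RNAs on panel 2 varied more than miR-520h, with ranges of 2.12 cycles for U6, 3.29 for SNORD38B and 3.56 for SNORD49A. The controls that are not cellular RNA ranged over 1.98 cycles (the UniSp6 spike-in) and 0.94 cycles (the mean of 3 UniSp3 calibrator wells). The range of miR-520h thus lay between those of the UniSp3 and UniSp6 controls. A range over 5 values is a description, and the order of the 3 smallest differs by less than the SD of a single well. Whether the miR-520h signal came from cellular RNA was not tested. All 45 water wells of the panels, over the 5 purifications, were without a Cq.

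**Figure D2:**
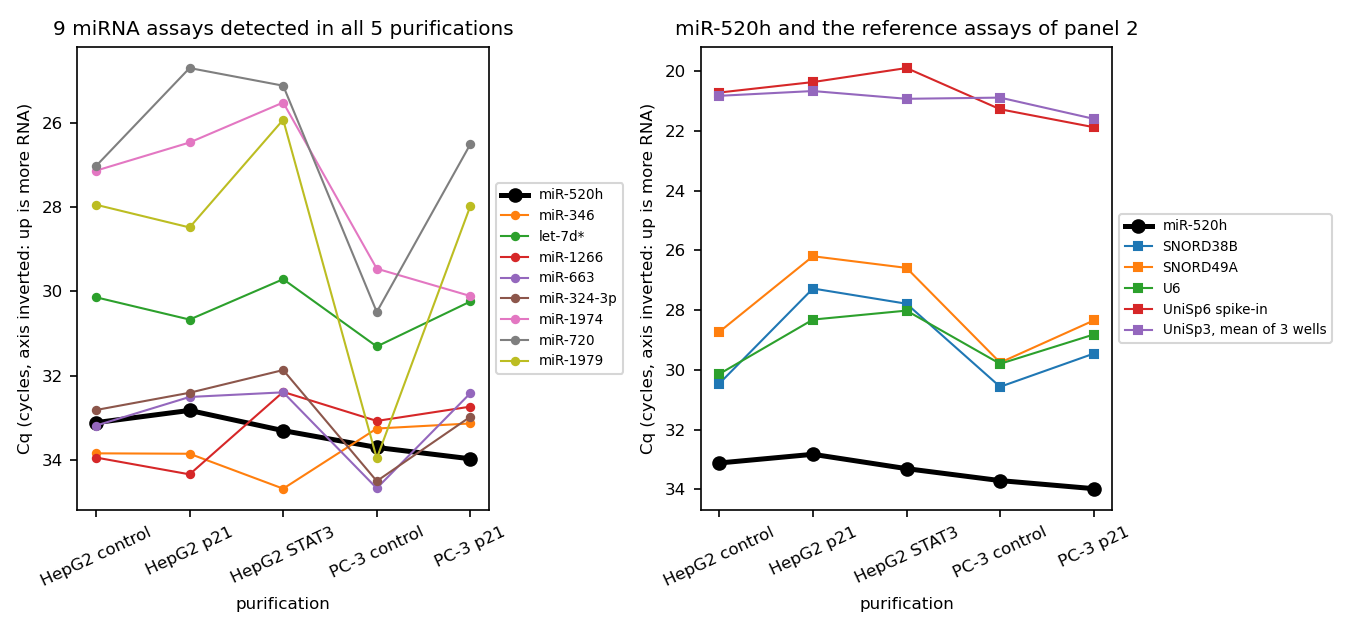
Left, Cq in cycles of the 9 miRNA assays detected in all 5 purifications, and right, miR-520h beside the reference assays of panel 2, on inverted axes so that more RNA is higher. The thick black line of miR-520h spans 1.15 cycles, while U6, SNORD38B and SNORD49A span 2.12 to 3.56 and UniSp3 spans 0.94.

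Differences between purifications are given on the log2 scale, as the Cq of the second purification minus that of the first. They were also centred on the median of the miRNA assays of the same panel that were detected in both, and a centred value of at least 1 in size (2-fold) was counted. A difference between 2 wells had an SD of 0.724 (11 pairs of reference assays repeated on the other panel), which also holds shifts between the panels. A centred value joins the change of miR-520h with the shift of the other assays of its panel, so both are given.

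With the p21 probe in HepG2, miR-520h was 0.29 higher than with the control probe before centring. The panel median was 1.06 higher over 16 assays, so the centred value was -0.77, and 4 of the 16 assays had a smaller difference. No member was counted as 2-fold higher or lower, where 37.9% and 36.9% of the 103 assays detected with both probes were. U6 rose by 1.82, SNORD38B by 3.18 and SNORD49A by 2.53 on the same panel. The direction depended on the scale: miR-520h was 0.29 higher with no centring, 0.13 higher relative to UniSp3 and 2.42 lower relative to the panel's reference assays (-2.42).

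With the STAT3 probe in HepG2, miR-520h differed from the control by -0.19 before centring and by -1.33 after it, as the panel median was 1.13 higher over 13 assays. This put 1 member in the 2-fold lower count, where 25% of 100 assays were lower and 29% higher. The value was negative under each centring tried, from -0.09 relative to UniSp3 to -2.50 relative to U6 and the small nucleolar RNAs, but only some of these passed 2-fold. Between the p21 and STAT3 purifications miR-520h differed by 0.48 before and 0.40 after centring, below the SD of a difference. Of the 155 assays detected in both, 29.0% were 2-fold higher with the p21 probe and 20% lower, and no member was. Relative to the panel's reference assays this difference turned to -0.38. The comparisons with p21 and with STAT3 use the same HepG2 control.

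In PC-3 the p21 probe gave -0.28 for miR-520h against the control before centring and -0.11 after it. Only 4 assays of panel 2 set that median. Over both panels 10 assays were detected with both probes, of which 20% were 2-fold higher and 10% lower, and no member was among them. The direction depended on the scale here too, with -1.44 relative to the reference assays of the panel, 0.32 relative to UniSp6 and 0.44 relative to UniSp3.

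Between the cell lines miR-520h was 0.58 higher in the HepG2 control than in the PC-3 control before centring. It was 0.17 higher after centring, against 4 assays of the panel. UniSp6 on panel 2 was 0.56 higher too, and relative to UniSp6 miR-520h was 0.02 higher. Of the 10 assays detected in both controls, 30% were 2-fold higher in HepG2 and 20% lower. With the p21 probe miR-520h was 1.15 higher in HepG2 than in PC-3 before centring. The panel median was 2.3 higher over 14 assays, so the centred value turned to -1.15, which counted as 1 member 2-fold lower. Of the 45 assays detected in both p21 purifications, 37.8% were higher and 31.1% lower. This difference was also positive relative to UniSp3, at 0.22, so no direction between the lines can be given for miR-520h with the p21 probe.

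The authors' deposited table of fold changes gives miR-520h a fold of 0.494 for STAT3 over control and 0.956 for p21 over control in HepG2, and 1.246 for p21 over control in PC-3. These are linear ratios relative to UniSp6. The one for PC-3 is above 1, opposite in direction to the -0.28 and -0.11 given above, and UniSp6 itself differed by -0.59 there. In the same table the other 41 members carry 1 value per panel and comparison. On panel 1 all 21 members have 1.402 for STAT3, 0.849 for p21 in HepG2 and 0.71 for p21 in PC-3. On panel 2 the other 20 members have 0.565, 0.782 and 1.51. Each of these constants is the ratio given by the UniSp6 wells of that panel alone, as they come out when both Cq values of an assay are set to the same limit. A fold in the authors' deposited table for any member but miR-520h is thus not a measurement of that member.

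The other 41 members gave 27 calls, all above Cq 35. The lowest was 35.43, the median 38.03 and the highest 39.72. There were 5 calls between 35 and 36 and 20 above 37. The highest Cq of miR-520h was 1.45 cycles below the lowest of these calls, a gap that no member fell into. Of all 210 member wells, 15.24% had a Cq, against 44.5% of the 3515 wells of the other miRNA assays. Among wells with a Cq, 15.62% of those of members were at most 35, against 41.94% of those of the other assays.

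**Figure D3:**
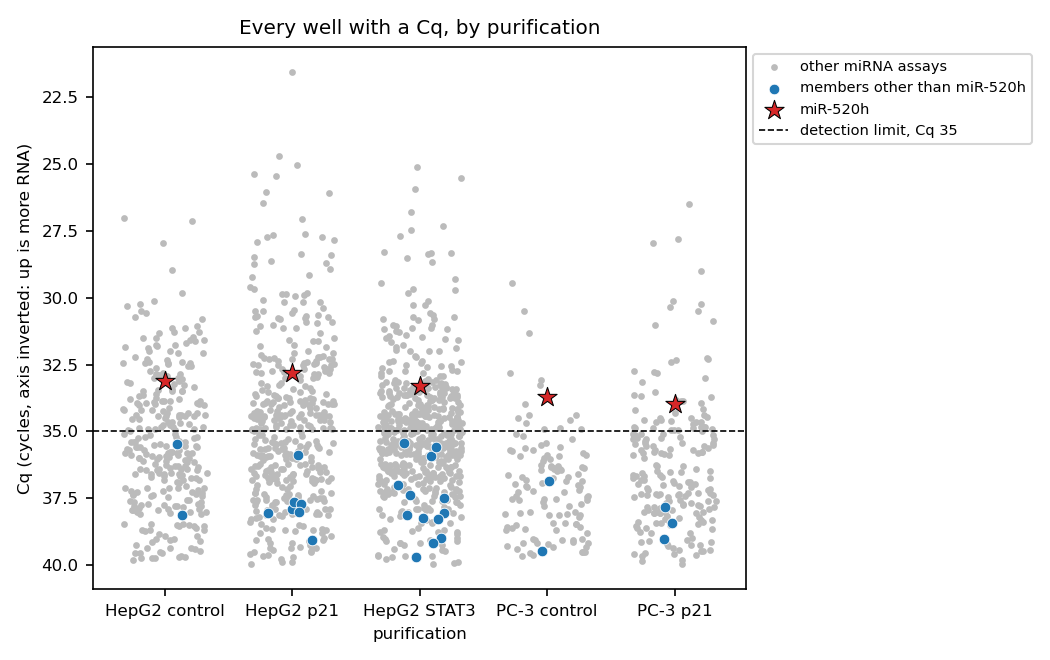
Every well with a Cq, in cycles on an inverted axis, by purification, with grey for other miRNA assays, blue for members other than miR-520h and a red star for miR-520h. In each purification the star lies above the dashed limit of 35 cycles and all 27 blue points lie below it.

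Any Cq at all was called for 3 members in the HepG2 control, 8 with the p21 probe and 14 in the STAT3 purification, where 39.3%, 55.8% and 75.3% of all assays had one. In PC-3 it was called for 3 members in the control and 4 with the p21 probe, where 16.0% and 27.8% of all assays had one. Over any purification 21 of 42 members had a Cq, against 80.9% of all assays. Members with a Cq were most numerous where all assays with a Cq were, in the STAT3 purification. As a share of 42, the members were below the share of all assays in every purification.

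Most of these late calls were single. Of the 21 members with a Cq, 15 had it in 1 purification, 3 in 2 purifications, 2 in 3 purifications and miR-520h in all 5. Of the 17 members called with the p21 or STAT3 probe in HepG2, 5 were called with both and 15 were not called with the control. With the STAT3 probe only, 8 members were called, and 3 with the HepG2 p21 probe only. With the p21 probes of both lines, 2 members were called, miR-520h and miR-520a-5p. Among all 745 assays any Cq was called for 39.3% with the control, 55.8% with p21 and 75.3% with STAT3 in HepG2. Overlaps between purifications were not counted over all assays, so these counts are not a result about the members.

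The late calls named here were chosen after their values were seen. miR-520a-5p, from the 5′ arm of its hairpin, was called at 38.03 with the p21 probe in HepG2, 35.43 with the STAT3 probe and 39.02 with the p21 probe in PC-3. miR-527 was called at 38.12 in the HepG2 control, 38.97 with the STAT3 probe and 36.84 in the PC-3 control. miR-522 was called at 37.65 with the p21 probe and at 35.57 against STAT3 in HepG2. None of these 3 reached the limit in any well, and their calls differed by up to 3.59 cycles between purifications.

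The remaining calls below 36 were single ones, 35.47 for miR-517b in the HepG2 control, 35.88 for miR-523 with the p21 probe in HepG2 and 35.93 for miR-525-5p with the STAT3 probe. miR-519e (39.07 and 37.38) and miR-517a (37.9 and 37.48) were called with the p21 and STAT3 probes in HepG2. The miR-520e call, 37.0, came with the STAT3 probe. The members with 1 call above 37 were miR-519c-3p and miR-519d with the p21 probe in HepG2, miR-516a-5p, miR-516b, miR-518b, miR-518f, miR-519b-3p and miR-519c-5p with the STAT3 probe, miR-518a-3p and miR-524-5p with the p21 probe in PC-3, and miR-520g in the PC-3 control. Each of these calls rests on 1 well and was not repeated.

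No Cq was called in any purification for 21 members, 11 on panel 1 and 10 on panel 2. They were miR-498, miR-512-3p, miR-512-5p, miR-515-3p, miR-515-5p, miR-517c, miR-518c, miR-518d-3p, miR-518e, miR-519a, miR-520a-3p, miR-520b, miR-520c-3p, miR-520d-3p, miR-520d-5p, miR-520f, miR-521, miR-524-3p, miR-525-3p, miR-526a and miR-526b. miR-512-3p, miR-515-5p, miR-517c and miR-519a, all known as abundant in placenta, are among them. They were picked from this list after it was seen. Other members of this placental cluster, such as miR-517a, miR-517b and miR-519d, had late calls. A well without a Cq means that the product did not cross the threshold in that run, not that the miRNA was absent.

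The 43 hairpins from which the members come lie on the plus strand at chr19:53666679-53762430 (GRCh38.p14), a span of 95.8 kb. MIR520H lies at chr19:53742512-53742599, with 35 of these hairpins before it and 7 after it. The hairpin just before it, MIR517C, ends 1104 bases away, and miR-517c had no Cq in any purification. The next one after it, MIR521-1, starts 6036 bases away, and miR-521 had none either, from this hairpin or from its second copy. The hairpin next to it on either side thus gave no Cq. Before MIR520H, however, 2 hairpins that lie closer to it than MIR521-1 does belong to members with a late call. MIR518A2 lies 3.1 kb before MIR520H (miR-518a-3p, 1 call at 37.83), and MIR516B1 lies 5.6 kb before it (miR-516b, 1 call at 38.25). Each of these miRNAs has a second hairpin in the cluster, so the call cannot be given to 1 copy. Beyond MIR521-1, MIR522 lies 8.6 kb after MIR520H (2 calls) and MIR519A1 9.8 kb after it (no call).

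**Figure D4:**
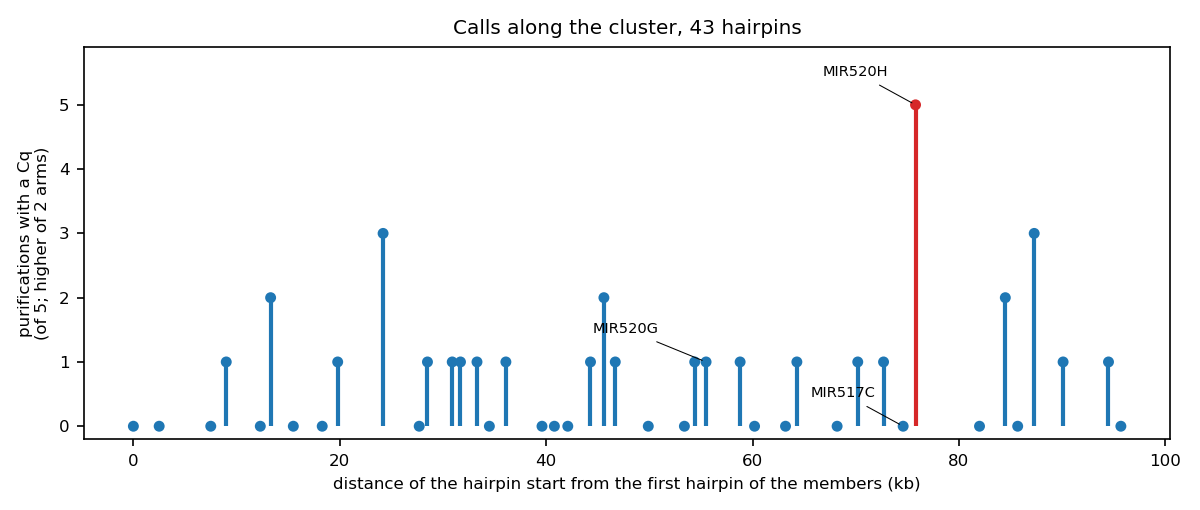
Number of purifications, out of 5, in which a mature miRNA of a hairpin had a Cq (the higher count where both arms are members), against the distance in kb of the hairpin start from the first of the 43 hairpins. MIR520H at 75.8 kb stands at 5, MIR517C beside it at 0 and its near copy MIR520G at 55.5 kb stands at 1.

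miR-520g, whose mature sequence holds all of miR-520h, had no Cq in 4 purifications and 39.47 in the PC-3 control. There it was 5.76 cycles above miR-520h. The 2 extra 3′ bases are the difference between the mature sequences printed above, and the hairpins start 20346 bases apart. The assays of the pair thus gave different readings in every purification, with miR-520h detected 5 times of 5 and miR-520g 0 times of 5. The longest run of bases that other members share with miR-520h was 15 for miR-520a-3p and 14 for miR-521 and miR-525-3p, and none of these had a Cq. What the miR-520h assay amplified was not tested.

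The seed groups gave no other detected member. Of the 5 members with AAGUGCU, printed above, miR-520e was called 1 time and the other 4 not at all. Outside the cluster the same seed is found in miR-302a to miR-302d, miR-372 and miR-373, which are miRNAs of embryonic stem cells. None of these 6 was detected. Their lowest Cq was 35.49, for miR-302a with the STAT3 probe, and miR-372 had no Cq. The group AAAGCGC (miR-518a-3p, miR-518b, miR-518c and miR-518d-3p) had 2 of 4 members with a call. The group AAGUGCA (miR-519a, miR-519b-3p and miR-519c-3p) had 2 of 3.

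miR-517a and miR-517b, with the same mature sequence, were not called in the same purifications. miR-517a had 37.9 and 37.48 with the p21 and STAT3 probes in HepG2, and miR-517b had 35.47 in the HepG2 control only. No purification gave a call from both, so these late calls did not repeat between the assays whose names were matched to this sequence. miR-517a was read on panel 1 and miR-517b on panel 2, and the primers of both are not known.

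miR-519d and its seed relatives of the miR-17 family were read on the same panel. miR-519d had 1 call, 38.05 with the p21 probe in HepG2. miR-106a, which is widely expressed in dividing cells, was at 32.01 in the HepG2 control, 28.35 with the p21 probe, 30.82 with the STAT3 probe and 34.33 with the p21 probe in PC-3, with no Cq in the PC-3 control. Of the 6 assays with this seed outside the cluster (miR-17, miR-20a, miR-20b, miR-93, miR-106a and miR-106b), 4 were detected in the HepG2 control, 4 with the p21 probe and 3 in the STAT3 purification. In PC-3 none was detected in the control and 1 with the p21 probe. In HepG2 this seed was detected in the miR-17 family and not in the cluster member.

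Calls came from both arms of the hairpins. Of 24 members that RefSeq names as the 3′ arm, 10 had a call, and of 12 named as the 5′ arm, 6 had one. Over any purification 80.9% of all 745 assays had a Cq, so both arms were below that share. RefSeq gives no arm for 3 members, miR-518b, miR-520h and miR-521, of which 2 had a call, and the 3 members without a sequence all had one. In the hairpin printed above, miR-520h occupies bases 55 to 76 of 88, the 3′ side. Both arms of 7 hairpin sets are members. In 4 of these sets an arm was called, and in 1 of them, MIR519C, both were, in different purifications. The 6 passenger strand assays that carry cluster numbers were left out by the rule. None was detected and all 6 had a Cq in some purification, where 44.2% and 80.9% of all assays did. The lowest was 35.64, for miR-518f* with the STAT3 probe.

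The cluster was set beside another imprinted miRNA cluster, on chromosome 14, whose miRNAs are expressed from the maternal copy. Of its 49 assays, 5, 8 and 10 were detected in HepG2 with the control, p21 and STAT3 probes, and 1 and 3 in PC-3 with the control and p21 probes. Over any purification 13 of 49 (26.5%) were detected and 41 had a Cq, where 44.2% and 80.9% of all assays did. Of the 49 assays, 34 are on panel 1 (6 detected) and 15 on panel 2 (7 detected), while the cluster members are 21 and 21. The panels differ in their share of detected assays, so the counts of the clusters are not matched. Next to the chromosome 19 cluster lies the cluster of miR-371 to miR-373, whose MIR372 hairpin starts 25.5 kb beyond the last member hairpin. Of its 4 assays none was detected. No test of these counts was made, as assays that share a purification are not replicates.

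Other marker lists, chosen for this report, were read in the same way. They were read in RNA recovered with a probe, so they cannot check the cell labels. miR-122, a marker of hepatocytes, had no Cq in any purification. The other 4 of 5 liver assays were detected with the STAT3 probe and not in the other purifications. Of 5 prostate epithelium assays, 1 was detected in PC-3, miR-205 with the p21 probe at 34.66, and none in the PC-3 control. More of this list was detected in HepG2, with 4 of 5 in the STAT3 purification, 1 with the p21 probe (miR-205, at 32.65) and none in the control. All 5 neural assays were detected in each HepG2 purification. Of 5 blood assays, 3 to 4 were detected there, and of 6 muscle and stroma assays 4 to 5. None of the neural, blood or muscle assays was detected in PC-3. Of the 8 stem cell and germ cell tumour assays none was detected in any purification. These lists describe RNA recovered with a probe and not the cells' total RNA, and their part in the miR-520h signal was not tested.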

How the data were processed

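The main deposited file holds Cq values without normalisation (unit: score), 1 well per assay, measured by the authors with Exiqon multiplex SYBR Green panels, per the labels' protocols. Wells without a call stayed without a value. The authors' deposited fold table is headed as log fold change, but its values are linear ratios. They come out of the Cq values when each panel is normalised to its own UniSp6 well, which was inferred, as the housekeeping gene is not named. The sources used here do not give the threshold setting, the instrument or the assay primers.

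Detection meant a Cq of at most 35. Differences were centred per panel on the median of its miRNA assays detected on both sides, and 2-fold was counted over all 745 assays. Names in parentheses were read without them. Groups and panels came from the labels, and the depth of a panel is unknown beyond its detected share. Mature sequences, hairpins and coordinates came from RefSeq tables (GRCh38.p14). Older names without an arm were matched by hand to 1 arm.

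By rule, members detected in any purification, members with the seed of a detected one, assays detected in the same purifications as miR-520h and the reference assays were named with values, and later calls by count and range. Members named beyond this were chosen after their values were seen. The members and lists were chosen with earlier results of these data known. With 1 purification per condition no test was made. Python 3.11.15, pandas 2.3.3 and numpy 2.4.6 were used, and the calculation was tested on simulated data. There every assay had a Cq and the noise was below that of the repeated wells. The simulation thus did not test a median set by few assays.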

Additional observations from a re-analysis of the deposited data

How the results depend on the processing

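Of 222 values recomputed under other settings, 164 lay within a tolerance, 56 lay outside it and 2 turned the direction of a value that had passed 2-fold. The tolerance was the SD of a difference between wells, 0.724, for a difference and 1.5 times for a count, so values within it did change, and small ones could change sign. With a Cq limit of 32, 0 members were detected in each purification, where 0.4% (PC-3 control) to 8.72% (HepG2 p21) of all assays were. With 33, 1 was detected with the p21 probe in HepG2 and 0 in each of the other 4. Of all assays 14.23% were detected there, and 0.54% to 9.66% in the other 4. With 37, the count was 2 in the HepG2 control, 2 with p21, 5 with STAT3, 2 in the PC-3 control and 8 in any. The shares of all assays were 28.05%, 41.88%, 60.81%, 7.65% and 67.79%. With any Cq the count was 3, 8 and 14 in HepG2, 3 and 4 in PC-3 and 21 in any, with the shares of all assays given above. A limit of 34, UniSp6-shifted Cq values and added passenger strands left 1 detected member in each purification. At the limit of 34, 1.07% of all assays were detected in the PC-3 control and 19.73% with the STAT3 probe.

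The centred difference of miR-520h for p21 over control in HepG2 was 0.29 with no centring, 0.13 on UniSp3, -2.42 on the reference assays and -2.22 on U6 and the snoRNAs. For STAT3 over control it was -0.19, -0.09, -2.12 and -2.50. For p21 over STAT3 it was -0.38 on the reference assays. For p21 over control in PC-3 it was -1.44 on the reference assays and -1.44 on U6 and the snoRNAs, and it turned to 0.32 on UniSp6 and 0.44 on UniSp3. For the HepG2 control over the PC-3 control it was 0.02 on UniSp6. For HepG2 over PC-3 with p21 it turned to 1.15 with no centring and to 0.22 on UniSp3, and was -0.36 on UniSp6. The number of members at least 2-fold lower followed. It became 1 for p21 over control in HepG2 (reference assays, U6 and snoRNAs, limit 34) and 1 in PC-3 (reference assays, U6 and snoRNAs). It became 0 for STAT3 over control (no centring, UniSp3) and 0 for HepG2 over PC-3 with p21 (no centring, U6 and snoRNAs, UniSp6, UniSp3, limit 37), where no centring gave 1 member higher. With a limit of 37, members were detected on one side only: 1 with p21 and 1 with control in HepG2, 4 with STAT3 and 1 with control, 1 with p21 and 4 with STAT3, 1 in the PC-3 control against p21, 1 in each control between the lines, and 1 in HepG2 with p21 against PC-3. Detection on 1 side only was not counted over all assays at this limit. The cause of these changes was not tested.

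No paired analysis was possible because each condition has 1 purification and no test was made. With 1 purification the error of transfection and recovery is unknown. The SD of repeated wells does not cover it, as it holds only the PCR and any shift between the panels.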
